A study of Mus musculus with 6 samples.

Results

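The genes described here carry dopamine, serotonin and noradrenaline signalling in the brain: 5 dopamine receptors, 11 serotonin receptors, 6 adrenergic receptors, the synthesis enzymes Th and Ddc, the plasma membrane transporters Slc6a2, Slc6a3 and Slc6a4, and the breakdown enzymes Maoa and Maob. These 29 genes were chosen by name and function, out of 20244 coding genes with a probe on the array. A probe belonged to a gene if it carried the gene's name or one of its RefSeq transcripts, which gave 66 of 150305 probes. RNA from the prefrontal cortex was measured on 6 arrays, 1 per sample: 3 samples of wild type and 3 of Nrf2 knockout mice, all male, of the ICR strain, an outbred stock, and aged 3 to 4 months. Nrf2, encoded by Nfe2l2, is the transcription factor that switches on antioxidant defence. The labels name no treatment and leave unsaid which part of Nfe2l2 was deleted and whether the samples came from different animals. Their spread may therefore be technical, and the p-values measure no more than that spread.

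Monoamines are made by small groups of neurons in the midbrain and brainstem whose axons reach the cortex. Tyrosine hydroxylase, encoded by Th, starts the synthesis of dopamine and noradrenaline, and the decarboxylase Ddc serves all of the monoamines. Transporters take the released amine back up, and the monoamine oxidases Maoa and Maob degrade it. Prefrontal neurons carry the receptors, nearly all of them G protein-coupled, while mRNA of the synthesis enzymes and transporters lies mostly in the distant cell bodies. In a piece of bulk tissue, fewer cells of a type and less RNA per cell cannot be told apart.

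Signals are given as normalised log2 signal, the log2 of the processed intensity minus the 75th percentile of its array, so that 0 is the level of the 75th percentile. Differences are knockout minus wild type on the log2 scale, with limma's standard error (SE) and a p-value adjusted over all 105922 tested probes. Testing required that the scanner software had called the probe well above background on all 3 arrays of a genotype. Of the 66 probes 59 were tested, and each of the 29 genes had at least 1. Unless stated otherwise a gene is represented by its tested probe of the highest mean signal. Signals of different probes are not compared, because they depend on the probe's own sequence.

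The probe sequences show what was read for each gene and how far related receptors could share signal. Probes are 60 bases long and the deposited files give their positions on build mm9 for the manufacturer's own designs. Of 51 receptor probes, 4 contain the bases AANCCNNNNNNNTAN on the printed strand. These letters hold the codons for asparagine, proline and tyrosine in the NPxxY motif, which ends the last membrane-spanning helix of receptors of this class. The share was 1.5% of 46813 coding probes on the printed strand and 2.61% on either strand, and the receptor count was 4 on either strand too. A match of letters is a description only, and no overlap with another motif was searched. The 4 probes follow, with the matched bases in capitals.

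Drd4, chr7:148480683-148480742 (plus strand): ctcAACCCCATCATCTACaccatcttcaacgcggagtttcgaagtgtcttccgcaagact

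Htr6, chr4:138617683-138617742 (minus strand): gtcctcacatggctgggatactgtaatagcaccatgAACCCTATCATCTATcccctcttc

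Adra1d, chr2:131372160-131372219 (minus strand): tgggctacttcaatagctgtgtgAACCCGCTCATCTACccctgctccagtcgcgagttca

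Adra2a, chr19:54121975-54122034 (plus strand): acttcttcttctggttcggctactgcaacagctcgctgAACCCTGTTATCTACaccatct

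Identity between these 4 probes varied. Those of Adra1d and Adra2a were 73.3% identical at their best alignment over at least 40 bases, the highest value of 2098 pairs of probes from different members, and those of Htr6 and Adra1d 72.3%, while Drd4 and Adra2a gave 43.2% and Drd4 and Htr6 35.7%. The longest run of bases shared by probes of different members was 15, between Drd4 and Htr1b.

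Within a gene, probes mostly read separate places, but 4 genes have a pair that overlaps by 20 bases or more: 57 bases in Adra2a, 57 in Adrb1, 44 in Htr1b and 43 in Maob. The pair of Htr1b shows this, with the shared run in capitals. Its first probe lies at chr9:81525015-81525074 on the minus strand, and the second has no position in the files.

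Htr1b, brightest probe: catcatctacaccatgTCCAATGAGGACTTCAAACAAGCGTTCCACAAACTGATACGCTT

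Htr1b, other probe: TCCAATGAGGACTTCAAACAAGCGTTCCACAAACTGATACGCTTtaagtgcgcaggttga

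The dopamine receptors Drd2 and Drd3 each have a probe that was tested and one too dim to be tested, and both sequences of each are shown for that reason. The bright probe of Drd2 lies at chr9:49215047-49215106 on the plus strand. That of Drd3 is given from chr16:43762591 to 43790736 on the plus strand, an interval longer than the probe, so the probe joins separate stretches of the genome.

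Drd2, tested probe: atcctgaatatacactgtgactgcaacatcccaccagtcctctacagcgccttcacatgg

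Drd2, untested probe: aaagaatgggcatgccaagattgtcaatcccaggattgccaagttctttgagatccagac

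Drd3, tested probe: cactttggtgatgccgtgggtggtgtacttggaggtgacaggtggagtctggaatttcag

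Drd3, untested probe: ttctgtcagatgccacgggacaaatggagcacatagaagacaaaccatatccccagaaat

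A further pair of probes are shown because the largest shifts of their gene were read there. The dimmer probe of Htr2a spans chr14:75044950 to 75105415 on the plus strand, again longer than the probe itself, and that of Th lies at chr7:150079917-150079976 on the minus strand.

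Htr2a, dimmer probe: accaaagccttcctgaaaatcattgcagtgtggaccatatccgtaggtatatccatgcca

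Th, dimmer probe: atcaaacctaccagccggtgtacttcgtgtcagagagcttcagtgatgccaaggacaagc

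The arrays set limits on what follows. By the slide codes of the deposited arrays, the wild type arrays and knockout 1 were on slide 1, and knockouts 2 and 3 on slide 2. The arrays of slide 2 lay apart from the others on the leading principal component (52.2% of the variance). For members, the difference at the brightest probe is therefore also given with slide as a block, where it equals knockout 1 minus the wild type mean. The 75th percentile of the processed signal ranged from 245 to 280 and the share of probes well above background from 71.0 to 73.4%. The 7 markers of cortical excitatory neurons, among them Slc17a7 and Tbr1, were well above background on all 6 arrays. Nfe2l2 itself was lower in every knockout sample, by 4.08 (SE 0.12, limma adjusted p = 6.13e-04) at the coding probe that stayed above background.

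No monoamine gene differed between the genotypes past an adjusted p of 0.05: 0 of 29 genes passed in limma, against 3 of 17444 coding genes (0.0172%), and 0 of their 59 tested probes passed, against 0.00944% of all tested probes. Without knockout 1, slide and genotype cannot be told apart. There 3 of 29 genes passed (Slc6a2, Drd3 and Drd2, adjusted p = 0.0264, 0.0314 and 0.0388), as did 13558 of 105922 tested probes. At an unadjusted p under 0.05 there were 4 of 29 genes, or 13.8%, against 12.3% of all coding genes. They include Slc6a4, which was tested through wild type alone, and with a filter on all 6 arrays the count was 3 of 28. The count was 2 with normexp background correction, with the array median as scale, without wild type 2 and without knockout 3. All 4 measured lower in the knockout (Drd2, Htr1a, Slc6a2 and Slc6a4), where the share of coding genes that were lower at this p was 9.37% and the share higher 2.92%. The 3 knockout and 3 wild type values did not overlap in 6 of 29 genes, or 20.7%, against 19.3% of coding genes. Th was the 1 gene with higher knockout values (6.44% of coding genes), and the other 5 were lower (12.8%). With slide as a block, 2 of 29 genes had an unadjusted p under 0.05, beside 5.32% of coding genes. These shares lie near those of all genes.

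In direction, 18 of 29 genes (62.1%) measured below 0 and 11 above, against 51.2% of all coding genes below. The split was 17 of 29 beside 39.5% when arrays were scaled to their median, and 21 of 29 beside 65.9% with slide as a block. The median difference was −0.099, beside −0.0048 over all coding genes, and with slide as a block −0.11 beside −0.060. At its brightest probe and over all arrays, no monoamine gene differed by 2-fold or more (0 of 29 against 1.73% of coding genes). The dimmer probe of Th gave 1.06, and Slc6a4 gave −1.39 with slide as a block. The 95% interval of the difference lay within 1 on the log2 scale, that is within 2-fold either way, for 26 genes. It reached past 1 for Slc6a3, Slc6a4 and Th.

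**Figure D1:**
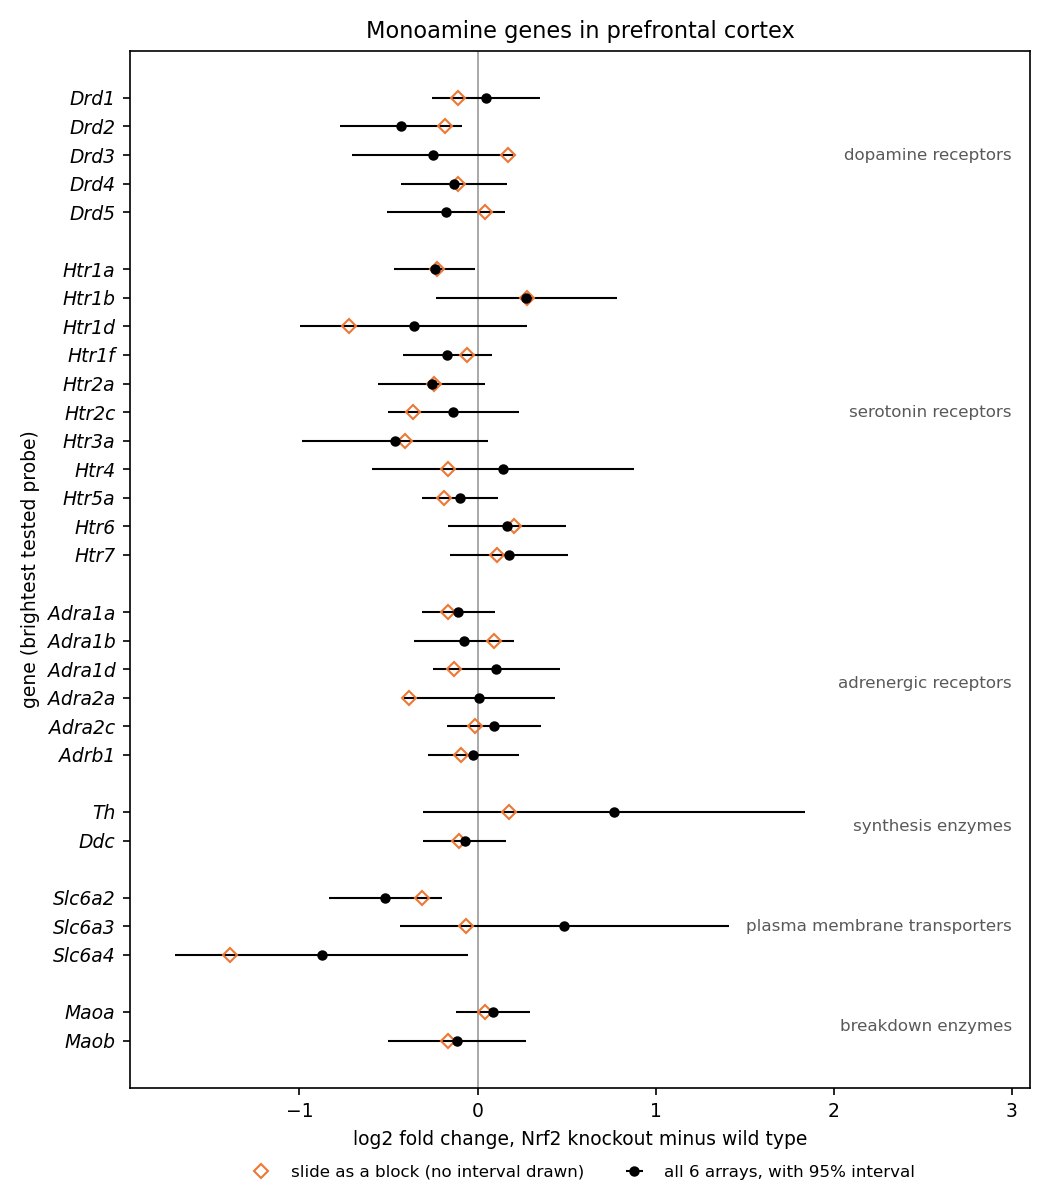
Log2 fold change (knockout minus wild type) of the 29 monoamine genes by role, on the horizontal axis; black points are the estimates from all 6 arrays with 95% intervals, and orange diamonds the values with slide as a block. Most intervals span 0 and stay within 1, Th and Slc6a3 have wide intervals around estimates above 0 that become 0.18 and −0.066 with the slide block, and Slc6a4 has the lowest value.

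Among the dopamine receptors, 4 of 5 measured lower in the knockout, with a median of −0.18. Drd2, the inhibitory receptor that also serves as autoreceptor, had a normalised log2 signal of −2.58, −2.63 and −2.72 in wild type against −2.83, −3.05 and −3.34 in knockouts 1 to 3. All knockout values lay below all wild type values, with knockout 1 nearest to them. The difference was −0.43 (SE 0.14, 95% interval −0.77 to −0.085, limma adjusted p = 0.31) and −0.18 with slide as a block (adjusted p = 0.943), and −0.100 with normexp background correction. The other Drd2 probe was not well above background on any array.

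Drd1, the stimulatory receptor and the main dopamine receptor of the cortex, did not separate the groups. Its values were 1.46, 1.67 and 1.79 in wild type against 1.53, 1.78 and 1.76 in the knockout. The difference was 0.048 (SE 0.13, adjusted p = 0.857) with a 95% interval of −0.26 to 0.35, and its other probe gave 0.061. With slide as a block the brighter probe gave −0.11.

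Drd3, a relative of Drd2, measured 1.72, 1.71 and 1.65 in wild type against 1.87, 1.15 and 1.31 in the knockout. Knockout 1 lay above all wild type samples and knockouts 2 and 3 below them, so the difference of −0.25 (adjusted p = 0.497) turned to 0.17 with slide as a block. Its other probe was well above background on 1 wild type array only. Drd4, another relative of Drd2, gave −0.13 at its brightest probe and −0.40 at the other, and the 3 probes of Drd5, a relative of Drd1, gave −0.18, −0.087 and −0.10. Under the slide block the probes of Drd4 gave −0.11 and 0.024 and those of Drd5 0.040, 0.072 and −0.038, so that 1 of 2 and 2 of 3 turned.

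Striatal tissue expresses Drd1 and Drd2 strongly, so striatal markers were read beside them. In the 8 markers of striatal projection neurons the summed level, on the linear scale relative to the 75th percentile, ranged from 80.3 to 86.3 in wild type and from 72.7 to 86.0 in the knockout, and 3 of 8 had a difference above 0. The marker Adora2a was the lowest of them, with values of 3.06, 3.05 and 3.09 in wild type against 2.81, 2.48 and 2.33 in the knockout. Its difference was −0.53 (SE 0.14, limma adjusted p = 0.307), it was −0.25 with slide as a block, and it ran in the same order over the knockout arrays as Drd2. The part of striatal tissue in the values of Drd2 was not tested.

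The serotonin receptors had a median difference of −0.14, with 7 of 11 below 0, and 3 of them did not overlap between the genotypes, all lower, beside 12.8% of coding genes. Htr2a, the excitatory receptor of cortical pyramidal cells and a target of hallucinogens and antipsychotics, was the 1 receptor whose groups did not overlap at more than 1 probe. At the brightest probe it measured 1.05, 0.76 and 0.64 in wild type against 0.58, 0.59 and 0.52 in the knockout. At the dimmer probe, printed above, the values were −0.22, −0.37 and −0.40 against −0.60, −0.97 and −0.72. All knockout values were the lower ones at both probes. The differences were −0.26 (SE 0.12, adjusted p = 0.36) and −0.44 (SE 0.12, adjusted p = 0.307), and −0.24 and −0.28 with slide as a block. Neither passed the threshold.

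Htr1a, an inhibitory receptor found on pyramidal cells and as the autoreceptor of serotonin neurons, measured 1.23, 1.10 and 1.28 in wild type against 0.98, 1.03 and 0.88 in the knockout. All knockout values were lower, and the difference was −0.24 (SE 0.095, limma adjusted p = 0.325) and −0.23 with slide as a block. Its other probe did not follow: it read −0.50, −0.77 and −0.62 in wild type against −0.71, −0.50 and −0.43 in the knockout, a difference of 0.081 (SE 0.12), and −0.084 with slide as a block.

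Htr1f, a further inhibitory receptor of the same family, read −0.055, −0.077 and −0.092 in wild type against −0.13, −0.18 and −0.42 in the knockout. The groups did not overlap, though knockout 1 lay close to wild type. The difference was −0.17 (SE 0.10, adjusted p = 0.427), −0.060 with slide as a block and −0.089 at the other probe, where the groups overlapped and the slide block gave 0.10.

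Htr2c, a relative of Htr2a linked to mood and feeding, measured 0.95, 1.06 and 1.33 in wild type against 0.75, 1.17 and 1.01 in the knockout. The groups overlapped, with a difference of −0.14 (SE 0.15, 95% interval −0.50 to 0.23, adjusted p = 0.649) and −0.36 with slide as a block. Its other 2 probes gave −0.20 and −0.00023.

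Htr3a encodes the ion channel subunit of the only serotonin receptor that is not G protein-coupled, and marks a class of cortical interneurons. It was read at 1 probe, with 0.38, 0.97 and 1.25 in wild type against 0.46, 0.32 and 0.43 in the knockout. The knockout samples lay close together and wild type 1 lay among them, while wild types 2 and 3 were higher. The difference was −0.46 (SE 0.22, limma adjusted p = 0.353), −0.40 with slide as a block, −0.71 without wild type 1 and −0.27 without wild type 3.

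Htr7, a stimulatory receptor, gave differences above 0 at both probes. Its brightest probe read 2.06, 1.81 and 2.29 in wild type against 2.16, 2.28 and 2.24 in the knockout, with a difference of 0.18 (SE 0.14, adjusted p = 0.514), and 0.11 with slide as a block. At the other probe, wild type read −1.61, −1.87 and −1.39 and the knockout −1.06, −1.36 and −1.12, without overlap, a difference of 0.44 (SE 0.15, adjusted p = 0.311) and 0.56 with slide as a block.

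In the other 5 serotonin receptors the groups overlapped at every probe. Htr1b, the terminal autoreceptor, gave 0.27 and 0.022 at the overlapping probes printed above, although they share most of their bases. Htr1d, a relative of Htr1b, gave −0.36 at its tested probe, and its other probe, not tested, was highest in knockout 2, by 1.60. Htr5a, an inhibitory receptor, gave −0.099 and 0.12, and Htr6, a stimulatory one, 0.16 and −0.072, so that the sign depended on the probe in both. Htr4, also stimulatory, gave 0.14 at the 1 of its 3 probes that was tested, and the other 2 were not well above background on any array. Under the slide block the brightest probes gave 0.28 for Htr1b, −0.72 for Htr1d, −0.19 for Htr5a, 0.21 for Htr6 and −0.16 for Htr4.

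The adrenergic receptors differed little at their brightest probes: the 6 differences lay between −0.11 and 0.11, with a median of −0.0063 and 3 on each side of 0. Adra2a, the inhibitory receptor through which guanfacine acts in the prefrontal cortex, depended on the array instead. It measured 1.50, 1.50 and 1.42 in wild type, 1.09 in knockout 1, and 1.73 and 1.63 in knockouts 2 and 3. Knockout 1 lay below all wild type samples and the knockouts of slide 2 above them. The difference of 0.010 (SE 0.18, 95% interval −0.41 to 0.43, adjusted p = 0.98) therefore became −0.39 with slide as a block (adjusted p = 0.774). The same order held at the other 3 probes, of which 2 share 57 bases. They gave 0.010, −0.021 and 0.22 over all arrays, and −0.38, −0.40 and −0.17 with slide as a block.

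Adra2c, its inhibitory relative, gave 0.093 at the brightest probe and 0.26 at the other. At the latter the groups did not overlap, with −0.0042, 0.0011 and −0.10 in wild type against 0.054, 0.30 and 0.33 in the knockout (SE 0.11, limma adjusted p = 0.328). With slide as a block these 2 probes gave −0.016 and 0.088. The Gq-coupled receptors had probes of both signs: Adra1a gave −0.11, −0.057 and 0.092, Adra1b −0.075, −0.19 and 0.099, and Adra1d 0.11 and −0.11. At the Adra1b probe with −0.19 and the Adra1d probe with −0.11, all knockout values lay below all wild type values. Their limma adjusted p were 0.341 and 0.486, and slide as a block gave −0.14 and −0.17. Adrb1, the stimulatory beta receptor of the cortex, gave −0.023, −0.060 and −0.14, the first 2 from overlapping probes. The slide block gave, at the brightest probes, −0.17 for Adra1a, 0.091 for Adra1b, −0.13 for Adra1d and −0.091 for Adrb1, so the sign turned for Adra1b and Adra1d.

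**Figure D2:**
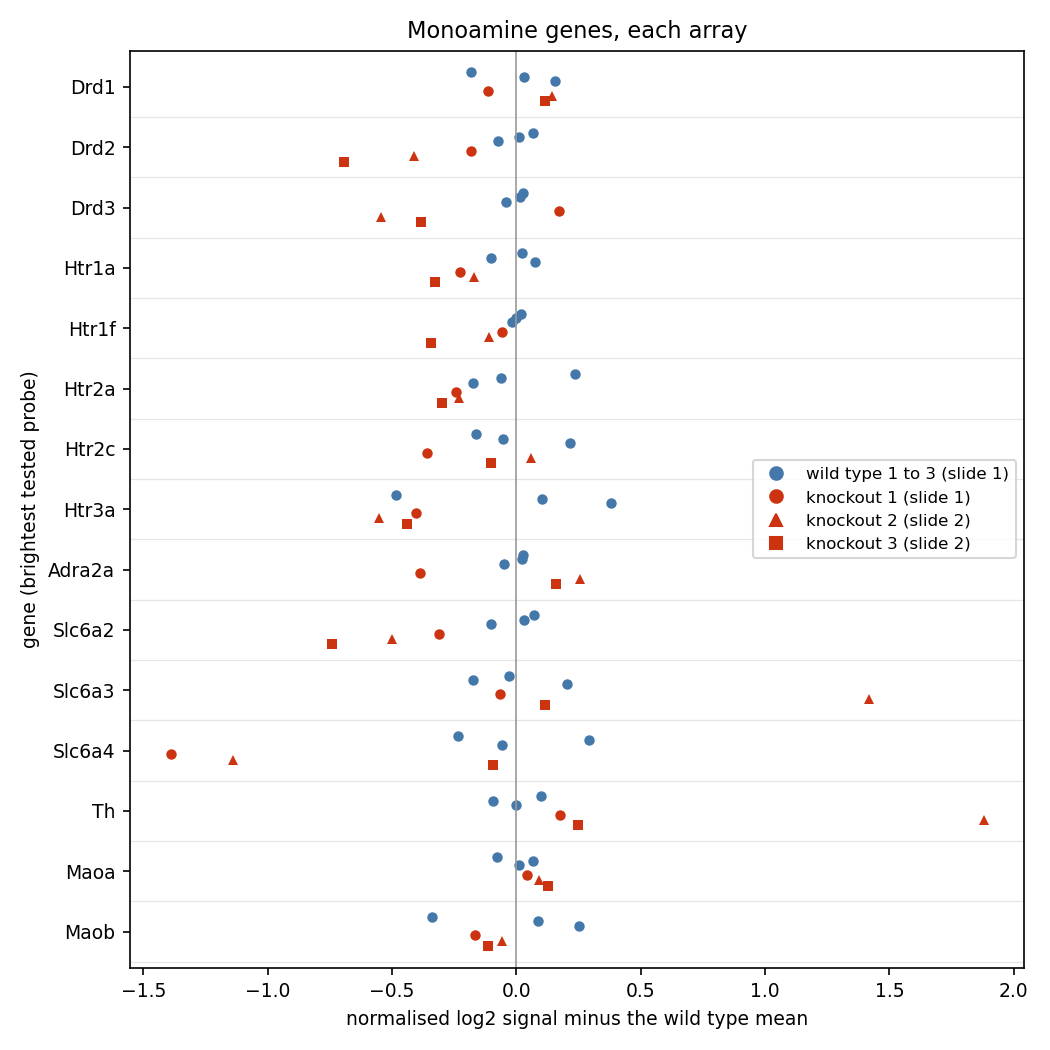
Normalised log2 signal of each array minus the wild type mean, for 15 monoamine genes at their brightest tested probe; blue points are wild type, red symbols knockout, with the circle for knockout 1 on slide 1 and the triangle and square for knockouts 2 and 3 on slide 2. Drd2, Htr1a, Htr1f, Htr2a and Slc6a2 have all knockout values below wild type, Adra2a and Drd3 split by slide, and Th and Slc6a3 stand out in knockout 2 alone.

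Of the synthesis enzymes, Th was the member furthest above 0, and 1 array decided it. Th measured −0.31, −0.51 and −0.42 in wild type against −0.24, 1.47 and −0.17 in knockouts 1 to 3. At the dimmer probe printed above, wild type read −2.88, −3.06 and −3.09 and the knockout −2.70, −0.68 and −2.47. All knockout values lay above all wild type values at both probes, but knockout 2 exceeded the next highest array by 1.63 and 1.78. The difference was 0.77 (SE 0.45, 95% interval −0.30 to 1.84, limma adjusted p = 0.412) at the brightest probe and 1.06 (SE 0.51, adjusted p = 0.358) at the other. Without knockout 2 the values were 0.21 and 0.43, and with slide as a block 0.18 and 0.31.

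Slc6a3, the dopamine transporter, stood out in the same sample. It read −3.90, −4.04 and −3.66 in wild type against −3.93, −2.45 and −3.75 in the knockout, so knockout 2 lay 1.21 above the next highest array and the rest overlapped. Its other probe was highest in knockout 2 as well, by 1.21. The differences of 0.49 (SE 0.38, adjusted p = 0.519) and 0.43 (SE 0.63, adjusted p = 0.73) became 0.024 and −0.28 without knockout 2, and −0.066 and −0.18 with slide as a block. Th and Slc6a3 were the 2 members highest in knockout 2 by at least 1, as were 25 of 17444 coding genes (0.143%). In all, 4 members and 21.9% of coding genes were highest in that array.

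Ddc, which is not limited to dopamine neurons, did not share this at its brightest probe. There Ddc read 0.90, 1.01 and 0.77 in wild type against 0.79, 0.86 and 0.82 in the knockout. The difference was −0.073 (SE 0.097), and −0.11 with slide as a block. The other 2 probes of Ddc gave 0.17 and 0.046, and 0.057 and −0.45 with slide as a block. Both were highest in knockout 2, by 0.038 and 0.22.

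Midbrain dopamine neurons and interneurons of the olfactory bulb both express Th and Slc6a3, so markers of each were read on the same arrays. Over 6 markers of midbrain dopamine neurons the summed level ranged from 2.78 to 3.00 in wild type, from 2.19 to 2.66 in the knockout, and was 2.53 in knockout 2. Of the 5 tested, 0 had a difference above 0, with a median of −0.39. With slide as a block the median was −0.11, Foxa1 turned to 0.22 and Pitx3 went from −0.63 to −0.15. Foxa1 was tested through wild type alone, being well above background on 1 of 3 knockout arrays. Its selection thus leaned on the group where it is high. Foxa2, the marker not tested, was not well above background on any array. For the olfactory bulb 10 genes were listed after the values of Th had been seen, and 9 of the 10 were highest in knockout 2, 5 of them by at least 1. Eomes, a marker of its output neurons, read −2.42 in knockout 2 and at most −7.13 elsewhere, and was well above background in that array only. Tbx21, Cdhr1, Doc2g and Scgn exceeded the next highest array by 1.50, 1.34, 1.37 and 2.14, where Scgn too was well above background in knockout 2 only, while Lhx5 was highest in knockout 3. The part of olfactory bulb tissue in the values of Th and Slc6a3 was not tested.

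**Figure D3:**
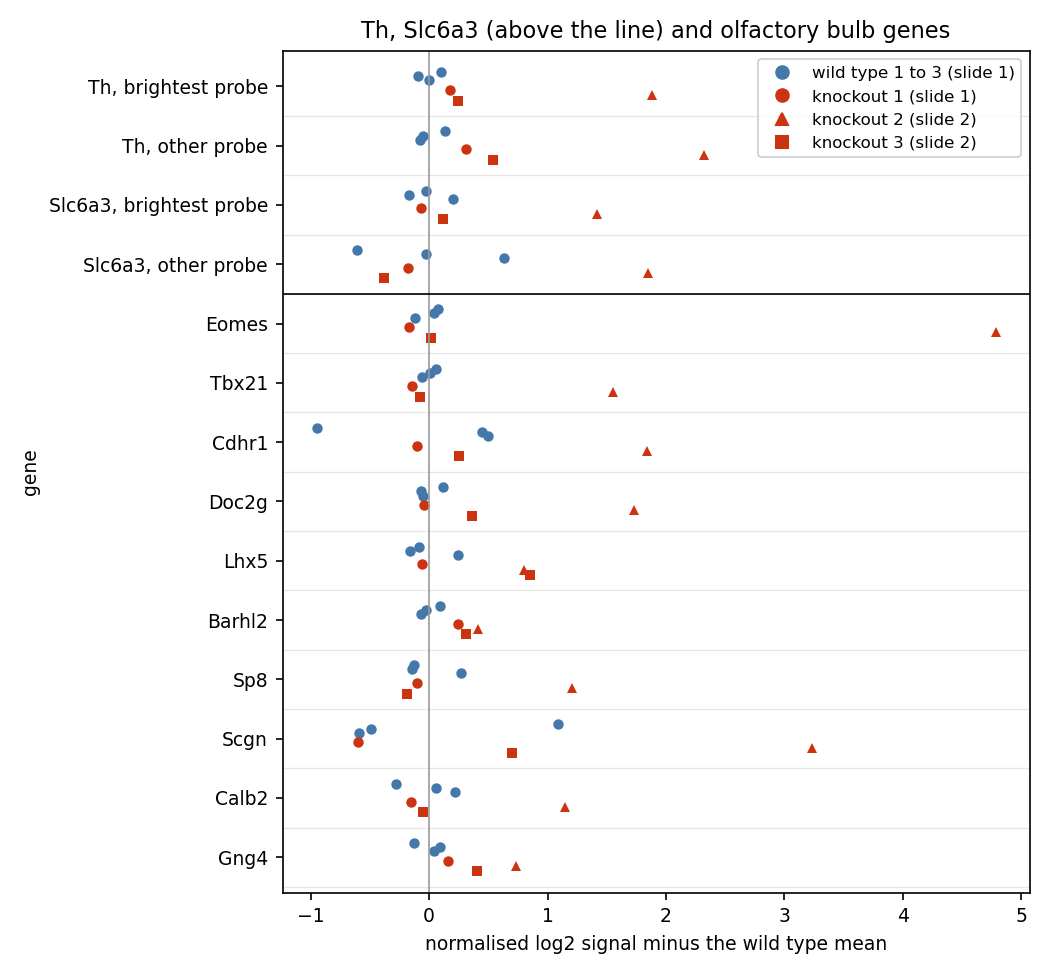
Normalised log2 signal minus the wild type mean, for both probes of Th and Slc6a3 (above the line) and for 10 olfactory bulb genes (below it, brightest probe each); colours and symbols give genotype, sample and slide. The red triangle of knockout 2 lies far to the right of the other arrays for Th, Slc6a3, Eomes, Tbx21, Cdhr1, Doc2g and Scgn, but not for Lhx5 and Barhl2.

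The noradrenaline transporter Slc6a2 had the lowest p-value of the members. It measured −3.36, −3.40 and −3.53 in wild type against −3.74, −3.93 and −4.17 in knockouts 1 to 3, without overlap. The difference was −0.52 (SE 0.13, 95% interval −0.83 to −0.20, limma adjusted p = 0.307), and −0.31 with slide as a block. With normexp background correction it was −0.072. Its other probe was not well above background on any array.

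Noradrenaline reaches the cortex from the locus coeruleus. The 4 markers of its neurons had a summed level of 1.94 to 2.14 in wild type against 1.47 to 1.94 in the knockout. Of the 3 tested, 1 had a difference above 0. The median was −0.055, and −0.080 with slide as a block. Among them Dbh, the enzyme that turns dopamine into noradrenaline, gave a difference of −0.49 (SE 0.16, adjusted p = 0.31) and −0.16 with slide as a block. The part of these cells in the values of Slc6a2 was not tested.

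Slc6a4, the serotonin transporter and target of common antidepressants, gave the largest difference at a brightest probe, near the limit of detection. It read −4.90, −4.38 and −4.73 in wild type against −6.06, −5.81 and −4.77 in the knockout, where it was well above background on 1 of 3 arrays. Knockout 3 lay within the wild type range. Slc6a4 was tested because all 3 wild type arrays were above background, so its selection leaned on the group where it is high. The difference was −0.87 (SE 0.34, limma adjusted p = 0.324) and −1.39 with slide as a block (adjusted p = 0.8), but −0.0067 with normexp background correction. Its other probe was well above background on 1 array. The 6 markers of serotonin neurons had summed levels of 3.67 to 3.92 in wild type against 3.36 to 3.72 in the knockout. Of the 6, 2 had a difference above 0, and the median was −0.099, or −0.16 with slide as a block. Slc18a2 is in the marker lists of dopamine, serotonin and noradrenaline neurons, and Lmx1b in those of dopamine and serotonin neurons. The summed levels of these lists therefore share probes and are not separate readouts. The part of such cells in the values of Slc6a4 was not tested.

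The breakdown enzymes differed little. Maoa, which prefers serotonin and noradrenaline, read 2.26, 2.41 and 2.35 in wild type against 2.38, 2.43 and 2.46 in the knockout. The difference was 0.086 (SE 0.087, 95% interval −0.12 to 0.29, adjusted p = 0.612), 0.041 with slide as a block, and 0.12 at the other probe. Maob, found mostly in astrocytes and serotonin neurons, read 1.88, 2.31 and 2.47 in wild type against 2.05, 2.16 and 2.10 in the knockout. Its difference was −0.11 (SE 0.16, 95% interval −0.50 to 0.27, adjusted p = 0.724), −0.17 with slide as a block, and −0.17 at the other, overlapping probe. For both enzymes the groups overlapped at each probe.

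Several probes per gene allowed a check of each direction within the same samples. Of 22 members with at least 2 tested probes, 14 had all of them on 1 side of 0 and 8 did not, beside 50.3% of 13991 coding genes with all on 1 side. Probes of a gene share the samples, and some share bases, so they are not replicates. Over single probes, 7 of 59 had an unadjusted p under 0.05 (11.9%, against 15.1% of all tested probes) and 12 of 59 did not overlap (20.3%, against 21.6%).

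**Figure D4:**
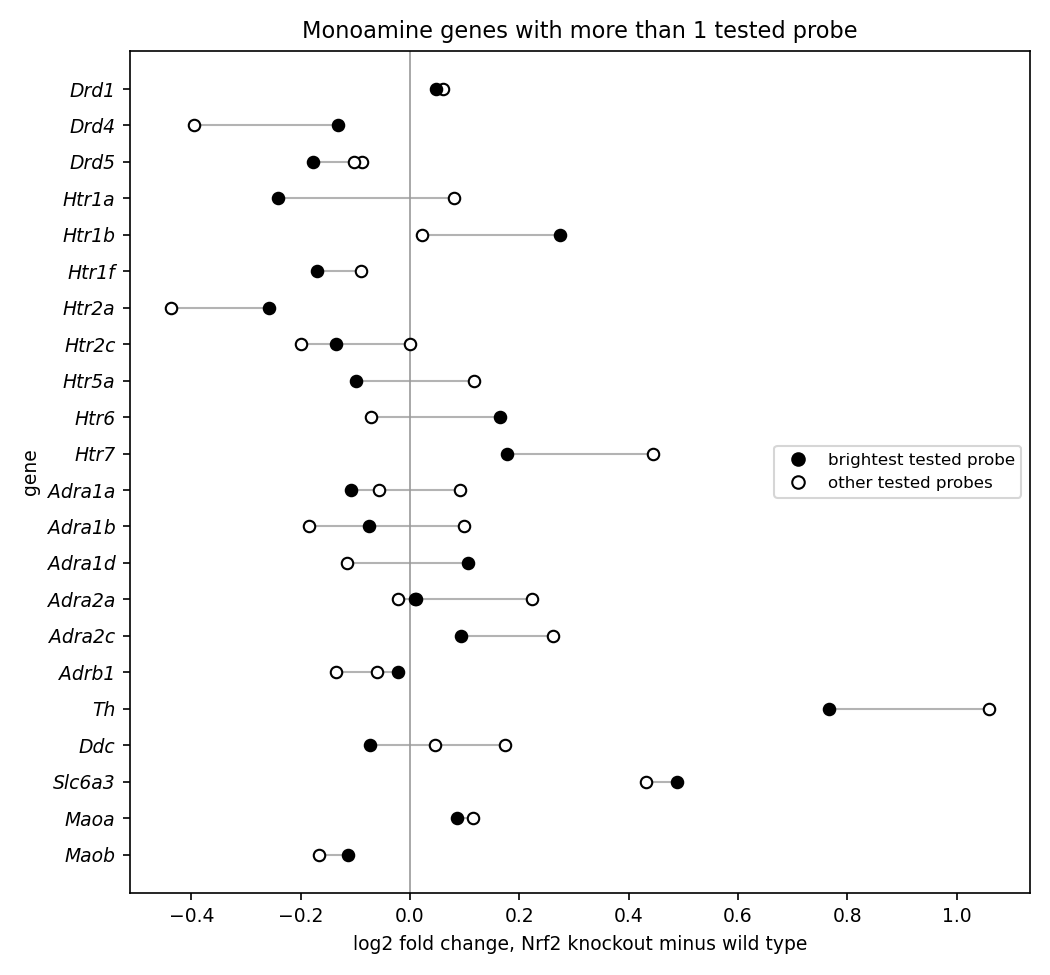
Log2 fold change (knockout minus wild type) at every tested probe of the 22 monoamine genes with more than 1; filled points are the brightest probe and open points the others, joined by a grey line per gene. The line crosses 0 in 8 genes, among them Htr1a, Htr6 and Ddc, 1 of the Adra2a probes is hidden behind the filled point, and both probes of Th lie furthest to the right.

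Beyond the members, 70 further genes of monoamine synthesis, storage, receptor coupling and receptor regulation were read. Of these, 69 were tested, 0 passed the threshold in limma, and 2 higher and 5 lower had an unadjusted p under 0.05, beside 2.92% and 9.37% of all coding genes. Their median was 0.030, with 38 above and 31 below 0. The 2 higher ones were Slc29a4, a low-affinity monoamine transporter, with a difference of 0.69 (SE 0.19, adjusted p = 0.307), and Gnas, the stimulatory G protein alpha subunit, with 0.27 (SE 0.095, adjusted p = 0.314). With slide as a block they gave 0.36 and 0.27.

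The lower ones included Dbh, given above, the mitochondrial aldehyde dehydrogenase Aldh2 with −0.46, the striatal G protein regulator Rgs9 with −0.37, and the adrenergic receptor Adra2b with −0.35. Adra2b is named although the rule for naming genes did not select it, after its values were seen. Slide as a block gave −0.17, −0.23 and −0.16 for Aldh2, Rgs9 and Adra2b. By group, the genes of synthesis and cofactors had 5 of 9 above 0, storage, uptake and breakdown 5 of 10, other receptors 3 of 5 tested, G proteins and effectors 20 of 32, and receptor regulators 5 of 13.

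Circular RNAs, closed loops made by back-splicing, gave a further readout from the same loci. By position on GRCm38, 14 circRNA probes lay inside a member: 7 in Htr4, 4 in Maoa, 2 in Htr7 and 1 in Adra1b. Of the 10 tested, 0 passed the threshold in limma (0.00289% of circRNA probes passed) and 1 had an unadjusted p under 0.05, against 14.8% of all circRNA probes. That probe lies in Htr4 and gave 0.39 (SE 0.14, adjusted p = 0.318) and 0.50 with slide as a block. It read −2.66, −2.51 and −2.79 in wild type against −2.15, −2.11 and −2.52 in the knockout. The other tested loops of Htr4 gave −0.50, 0.13 and −0.12. With slide as a block they gave 0.15, 0.0078 and −0.22, so the first turned. In Maoa, the loop at chromosome X, 16659445 to 16677608 on the plus strand, did not overlap between genotypes, with a difference of 0.20 (SE 0.095, adjusted p = 0.354), the 1 member loop without overlap among the 10 tested, beside 23.3% of circRNA probes. The other 3 loops of Maoa gave −0.14, −0.55 and −0.019. For the 4 loops in this order, that without overlap first, the slide block gave 0.099, −0.13, 0.26 and 0.12, so the last 2 turned. In Htr7, 1 loop stood apart in wild type 1, which read −2.26 against −4.44 and −3.91 in the other wild type samples and −4.04 to −3.88 in the knockout.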

How the data were processed

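The 6 one-colour Agilent arrays, 3 per genotype, came as deposited scanner output holding linear intensity values, produced by Feature Extraction version 12.0.3.1 as the file headers state (10.7 and limma per the submitters' processing notes). The authors' deposited value table, which tracks the scanner values as log2, served as an alternative. Each processed signal was put on a log2 scale and the 75th percentile of the array subtracted. Control spots (4974) were dropped and outlier-flagged spots set missing, and no probe was saturated. Genotypes were compared in limma 3.58.1 (R 4.3.3), with no covariate, over 105922 probes, using Benjamini-Hochberg adjustment and a threshold of 0.05. The fit was also run on simulated data with independent noise and no slide effect, which cannot show how it behaves with the slides of these arrays. The number of arrays limits the precision. CircRNA positions carry no stated build and were read as GRCm38, where 97.3% of them fell inside coding genes, against 35.9% once moved by 1 Mb.

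The members, gene lists and tests were chosen with earlier results of these data known. Full values are given for members with an unadjusted p under 0.05 or without overlap, and always for Maoa, Maob, Drd1, Drd2, Htr2a, Htr2c and Adra2a. Further pathway genes are the 3 highest and 3 lowest at that p. Values of some list genes are not reported here. Sequences are those of the deposited probes. Replicate numbers did not pair the samples.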

Additional observations from a re-analysis of the deposited data

How the results depend on the processing

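Of the alternatives, 0 members passed the threshold under each except without knockout 1, where all knockout arrays are on slide 2 and slide and genotype cannot be told apart. There 3 of 29 members passed: Slc6a2 at −0.62, Drd3 at −0.46 and Drd2 at −0.55 (adjusted p = 0.0264, 0.0314 and 0.0388). So did 6 of 69 other pathway genes tested, 2 circRNA probes of members and 13558 of 105922 tested probes in all. Leaving out each array in turn gave 5 to 13558 probes (50 without wild type 1, 6 without wild type 2 or knockout 2, 5 without wild type 3 or knockout 3), 0 to 3 members, 0 to 6 pathway genes, 0 to 2 circRNA probes, 2 to 4 members at an unadjusted p under 0.05 (2 without wild type 2 or knockout 3), and a median of −0.11 to −0.026, the latter without wild type 3. The main count of 10 probes became 16 with normexp background correction (offset 50), 4 with a filter on all 6 arrays, 7 with slide as a block and 4 on slide 1 alone. The main count of 4 members at an unadjusted p under 0.05 became 2 with normexp, the array median, slide as a block and slide 1 alone. The mean over all probes of a gene gave a median of −0.054, with no test. Slc6a4 has no value with the filter on all 6 arrays.

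Replicate numbers are shared between genotypes, but same-numbered samples did not deviate together (correlations −0.013, −0.050 and 0.038), so they do not pair the samples. With the replicate number as a block, 2 probes passed, 0 of them members, and the median stayed at −0.099.

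Directions turned for some members, among them Slc6a3, Htr1d and Drd3. Slide as a block, and slide 1 alone, gave Drd1 −0.11, Drd3 0.17, Drd5 0.040, Htr4 −0.16, Adra1b 0.091, Adra1d −0.13, Adra2a −0.39, Adra2c −0.016 and Slc6a3 −0.066. Normexp gave Drd1 −0.0035, Htr1d 0.0095 and Adra2a −0.035, the array median gave Adrb1 0.029, and the mean over probes Htr5a 0.0092, Adra1d −0.0043 and Ddc 0.049. Leaving out each array in turn gave ranges of −0.044 to 0.13 for Drd1, −0.049 to 0.49 for Htr4, −0.030 to 0.23 for Adra1d, −0.11 to 0.21 for Adra2a, −0.088 to 0.037 for Adrb1 and −0.28 to 0.014 for Maob. The cause was not tested, other than that the slide block rests on knockout 1. Normexp also brought the dim members Slc6a2 and Slc6a4 to −0.072 and −0.0067. The authors' table, quantile normalisation, no filter, kept outlier flags and the replicate block turned 0 of 29 directions.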
